A study of Mus musculus with 12 samples.

Results

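The genes described here encode the machinery that turns a muscle action potential into calcium release: the voltage-gated calcium channel of the T-tubule, the ryanodine receptors it faces, its adaptor Stac3, and the junctophilins that hold both membranes together. They were chosen by exact match of the gene name to 10 names, and all 10 were found among the 21936 genes listed in the files. Polyadenylated RNA was sequenced from skeletal muscle of C57BL/6N mice aged 3 months. The knockout animals, labelled as having muscular dystrophy, lacked PTRF, the caveolar coat protein now called cavin 1 and encoded by Cavin1. The other group was wild type and labelled normal. The labels give soleus and quadriceps, with 3 samples of each muscle and genotype, but every gene above 0 had identical values in the soleus and quadriceps samples of the same genotype and number (largest difference 0 TPM). The 12 samples were therefore counted as 6 libraries, 3 knockout and 3 wild type. Identical values allow no comparison of muscles, and none was made. The muscle that these values came from was not tested. The sources used here give neither the tissue range of the deletion nor the number of animals behind a library, so each p-value reflects how far these samples vary, and that variation may be technical.

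In skeletal muscle the T-tubule carries the action potential into the fibre. There the channel's pore subunit moves in response to voltage and opens the ryanodine receptor of the adjoining sarcoplasmic reticulum, so that stored calcium reaches the myofilaments. The site where a T-tubule lies between a pair of reticulum sacs is called the triad. In mice, loss of the pore subunit, of the beta subunit Cacnb1, of Stac3 or of Ryr1 abolishes this coupling.

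The values were taken as TPM, the length-normalised share of a gene in the transcripts of a library. No label or header names the unit. Totals of the listed genes ran from 843194 to 872482 TPM, and the read depth behind them is unknown. Cavin1 was at 0.284, 0.0905 and 0.0254 TPM in knockout libraries 1, 2 and 3, against 45.2, 40.0 and 42.2 TPM in wild-type libraries 1, 2 and 3. Transcripts of the mitochondrial genome took 42.3 ± 3.33% of TPM in knockout libraries and 48.8 ± 5.05% in wild-type libraries (SD, n = 3 each; p = 0.2 by an exact two-sided permutation test, whose smallest possible value here is 0.1). Because TPM is a share, the scale of a library moves all of its genes. Over the 11056 genes tested, the median log2 fold change was 0.33 on the deposited scale. It was -0.01 after trimmed-mean rescaling, which sets the bulk of genes equal between libraries (10981 genes tested). On a fibre-gene scale, which sets 12 muscle fibre markers equal on average, it was 0.16 (11015 genes tested). In bulk tissue, fewer cells of a type and less RNA per cell cannot be told apart.

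The channel and triad genes did not change as one group. The gamma subunit gene Cacng1 rose 4.88-fold and the beta subunit gene Cacnb1 rose 2.20-fold in knockout libraries. The pore subunit gene Cacna1s, the alpha-2-delta gene Cacna2d1, the second gamma gene Cacng6, the adaptor gene Stac3, the release channel gene Ryr1 and both junctophilin genes did not pass on the deposited scale. Of the 9 genes tested, 2 passed as higher and none as lower (limma on log2(TPM + 1), Benjamini-Hochberg adjustment over all genes tested), where 39.2% of all genes tested passed, 36.3% as higher and 2.92% as lower. The median log2 fold change of the 9 was 0.30, close to the 0.33 of all genes. Ryr3 was under 1 TPM in every library and was not tested. After trimmed-mean rescaling, and on the fibre-gene scale, Jph1 passed as lower beside the same 2 higher genes. Of all genes tested, 27.7% passed after trimmed-mean rescaling (14.2% higher, 13.5% lower) and 30.3% on the fibre-gene scale (23.5% higher, 6.77% lower). The same 3 genes passed after quantile normalization, where 25.5% of all genes passed (12.4% higher, 13.1% lower), and on a scale over nuclear genes alone, where 30.8% passed (23.9% higher, 6.89% lower).

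**Figure D1:**
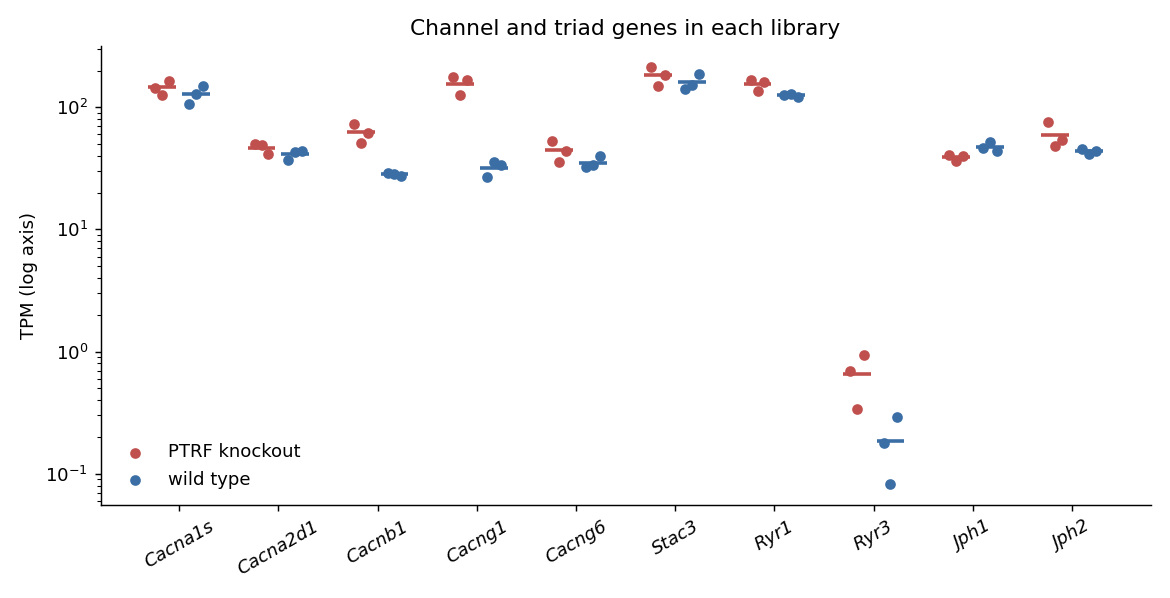
TPM of the 10 genes in each library on a log axis, with knockout libraries left of wild-type libraries, points for libraries and bars for means. Knockout and wild-type points of Cacng1 and Cacnb1 lie far apart, those of Cacna1s and Stac3 overlap, and Ryr3 lies below 1 TPM throughout.

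Cacna1s encodes the pore and voltage sensor of the channel and lies at 136052750 to 136119822 on the plus strand of chromosome 1 (GRCm38, GENCODE release 21 for mouse, as for all positions of genes). It stood at 144, 126 and 166 TPM in knockout libraries, against 107, 129 and 148 TPM in wild-type libraries. The groups overlapped, and wild-type library 3 was above knockout libraries 1 and 2. The log2 fold change was 0.19 (95% interval -0.18 to 0.56, limma adjusted p = 0.379). Dropping knockout library 2 gave 0.28 and dropping knockout library 3 gave 0.088. Dropping wild-type library 1 gave 0.063 and dropping wild-type library 3 gave 0.30, and Cacna1s passed in none of these 4 fits. Cacna2d1, on chromosome 5 from 15934691 to 16374511, encodes the extracellular subunit that also binds gabapentin. It was at 49.96, 49.2 and 41.2 TPM in knockout libraries and 37.3, 43.0 and 43.6 TPM in wild-type libraries. Knockout library 3 fell inside the wild-type range. Its log2 fold change was 0.17 (95% interval -0.15 to 0.50, adjusted p = 0.344), and 0.10 without wild-type library 1.

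Cacnb1 encodes the intracellular beta subunit, which carries the pore subunit to the membrane, and lies at 98001508 to 98023034 on chromosome 11, minus strand. Its levels were 73.7, 51.3 and 62.0 TPM in knockout libraries, against 28.9, 28.3 and 27.6 TPM in wild-type libraries. The 3 wild-type values lay close together (SD 0.671 TPM), and the lowest knockout value was well above them. This gave a log2 fold change of 1.10 (SE 0.16, adjusted p = 0.000329), and 692 of the 11056 tested genes had a larger one. Across the alternatives its log2 fold change ran from 0.71 to 1.23 with the adjusted p between 2.51e-05 and 0.00449.

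The gene with the greatest rise of the 10 was Cacng1, at 107703218 to 107716522 on chromosome 11, minus strand. It encodes the gamma-1 subunit, a membrane protein of skeletal muscle known in mice to limit calcium current through the channel. Its levels were 176, 126 and 168 TPM in knockout libraries, against 27.0, 35.4 and 33.9 TPM in wild-type libraries. Every knockout library was above every wild-type library by a wide margin. The log2 fold change was 2.25 (SE 0.17, limma adjusted p = 5.36e-06), and only 66 of all genes tested had a larger one. The range over the alternatives was 1.86 to 2.39, with the adjusted p between 2.84e-09 and 0.00118.

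Cacng6, the other gamma gene of the group, lies at 3424195 to 3435667 on chromosome 7, plus strand. Its product is related to gamma-1, and it was measured at 53.3, 35.7 and 44.1 TPM in knockout libraries and at 32.7, 33.4 and 39.7 TPM in wild-type libraries. Wild-type library 3 lay above knockout library 2, so the groups overlapped. Its log2 fold change was 0.31 (95% interval -0.06 to 0.68, adjusted p = 0.156), and 0.17 without knockout library 1.

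Stac3 encodes a small adaptor that binds the channel and is needed for its function in muscle, and lies on chromosome 10 from 127501686 to 127508823. It had the highest mean of the 10 genes in both genotypes. Its levels were 215, 149 and 185 TPM in knockout libraries, against 140.5, 154 and 189 TPM in wild-type libraries. The 2 ranges were interleaved, with a log2 fold change of 0.18 (95% interval -0.21 to 0.56, adjusted p = 0.425). With knockout library 1 dropped it was 0.054 and with knockout library 2 dropped 0.32. With wild-type library 1 dropped it was 0.085 and with wild-type library 3 dropped 0.30, and Stac3 passed in none of these 4 fits.

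Promoter windows of 300 bases, from 250 bases before to 50 after a RefSeq start (GRCm38.p6), were found for 6 of the 10 genes. Cacng1, Ryr3, Stac3 and Jph1 had no entry. Cacnb1, the only gene with an entry that passed, has a pair of annotated starts 4255 bases apart, and both are shown with the window of Cacna1s, which did not pass. Capitals mark E-boxes, the motif CANNTG bound by myogenic factors such as MyoD, which reads the same on both strands.
Cacnb1, upstream start, chr11:98022578-98022877, minus strand: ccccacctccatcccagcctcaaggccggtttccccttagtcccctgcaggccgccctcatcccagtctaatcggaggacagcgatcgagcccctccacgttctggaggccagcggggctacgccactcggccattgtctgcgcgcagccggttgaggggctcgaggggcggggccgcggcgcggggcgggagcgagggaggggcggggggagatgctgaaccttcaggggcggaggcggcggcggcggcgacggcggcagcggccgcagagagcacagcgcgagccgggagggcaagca
Cacnb1, downstream start, chr11:98018323-98018622, minus strand: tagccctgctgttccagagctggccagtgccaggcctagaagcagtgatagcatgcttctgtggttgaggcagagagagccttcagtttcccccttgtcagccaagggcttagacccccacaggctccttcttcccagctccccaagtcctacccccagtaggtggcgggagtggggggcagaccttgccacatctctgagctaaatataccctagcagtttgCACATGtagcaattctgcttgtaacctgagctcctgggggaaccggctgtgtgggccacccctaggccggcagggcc
Cacna1s, chr1:136052561-136052860, plus strand: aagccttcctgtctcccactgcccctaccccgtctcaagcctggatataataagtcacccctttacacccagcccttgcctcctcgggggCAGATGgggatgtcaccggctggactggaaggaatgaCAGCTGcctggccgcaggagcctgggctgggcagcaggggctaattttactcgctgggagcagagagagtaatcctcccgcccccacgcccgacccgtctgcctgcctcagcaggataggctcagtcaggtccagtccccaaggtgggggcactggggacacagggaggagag

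The upstream window of Cacnb1 was 73.7% G and C with no E-box, and the downstream window was 59.3% G and C with 1. The window of Cacna1s held 2, 1 of them the CAGCTG form. CANNTG occurs in 72.3% of all 32851 windows of this length in the RefSeq table, and CAGCTG, a subset of it, in 16.3%. The MEF2 consensus, searched on both strands, was in none of the 8 windows of these genes and in 3.19% of all windows. The deposited values are per gene, so they do not show which start of Cacnb1 was used.

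Ryr1 encodes the calcium release channel of skeletal muscle, at 29003344 to 29125179 on chromosome 7, minus strand. It was measured at 169, 136 and 162 TPM in knockout libraries, against 127, 128 and 122 TPM in wild-type libraries. The groups did not overlap, but knockout library 2 was close to the wild-type values. The log2 fold change of 0.30 did not pass (95% interval -0.02 to 0.62, adjusted p = 0.114). Ryr3, on chromosome 2 from 112631355 to 113217096, encodes a release channel that is prominent in newborn muscle and sparse in most adult muscle. It was at 0.693, 0.338 and 0.938 TPM in knockout libraries and 0.179, 0.0825 and 0.290 TPM in wild-type libraries. All knockout values were above the wild-type values, at a level far below that of Ryr1. An exact permutation test of its 6 values gave a two-sided p of 0.1, the smallest that 3 against 3 allows. With no filter on low values it did not pass limma (adjusted p = 0.0575).

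The junctophilin genes had log2 fold changes of opposite sign on the deposited scale, and neither passed there. Jph1, on chromosome 1 from 16964560 to 17097889, encodes the main junctophilin of skeletal muscle. It stood at 41.0, 36.1 and 40.2 TPM in knockout libraries and 46.0, 52.3 and 43.9 TPM in wild-type libraries, with every knockout value below every wild-type value. On the deposited scale the log2 fold change of -0.27 did not pass (95% interval -0.58 to 0.04, limma adjusted p = 0.142). It was -0.66 after trimmed-mean rescaling (adjusted p = 0.00684) and -0.47 on the fibre-gene scale (adjusted p = 0.0182), and Jph1 passed on both. Jph2, on chromosome 2 from 163336242 to 163397993, encodes the junctophilin shared by heart and skeletal muscle. It was at 75.6, 48.3 and 54.2 TPM in knockout libraries, against 45.5, 41.1 and 44.3 TPM in wild-type libraries. Knockout library 1 was far above the other libraries, and knockout library 2 was close to the wild-type range. The log2 fold change was 0.41 (95% interval 0.03 to 0.79, adjusted p = 0.079), and it did not pass. It was 0.23 without knockout library 1 and did not pass, and 0.55 without knockout library 2 and passed (limma adjusted p = 0.0289). Jph2 stood at 0.024 after trimmed-mean rescaling (limma adjusted p = 0.908) and 0.22 on the fibre-gene scale (limma adjusted p = 0.272), and passed on neither.

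**Figure D2:**
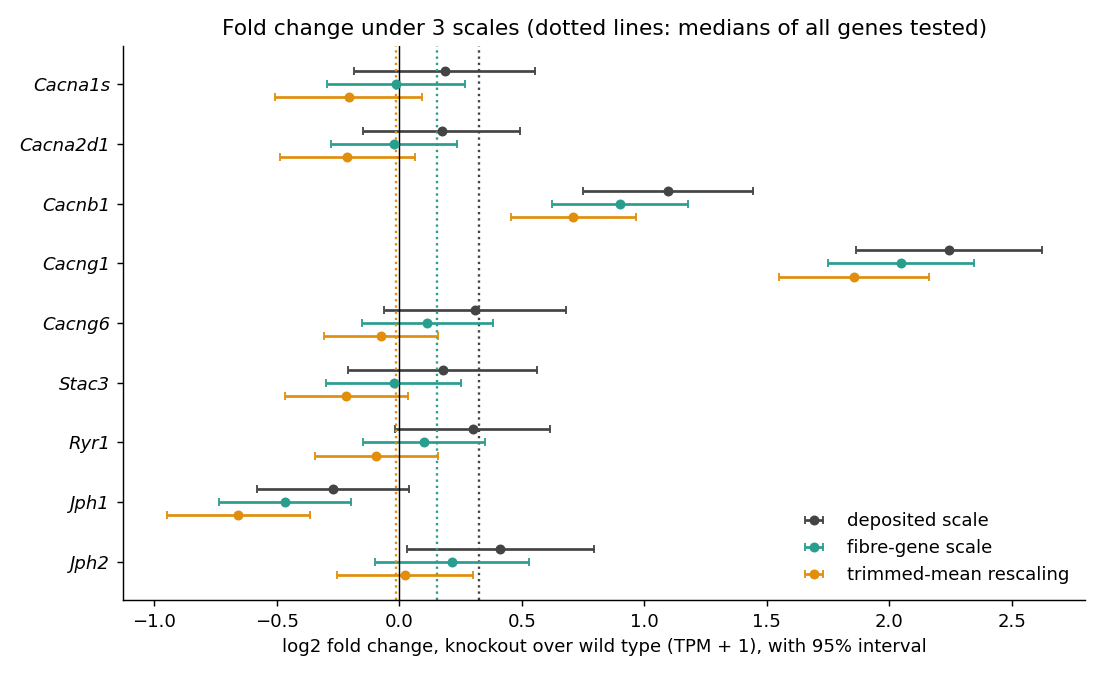
Log2 fold change of knockout over wild type on the TPM + 1 scale for the 9 genes tested, with 95% intervals from limma, on the deposited scale and under 2 rescalings; dotted lines show the median of all genes tested on each scale. Cacng1 and Cacnb1 lie right of 0 on every scale, and Jph1 lies left of 0 with its interval clear of 0 after both rescalings.

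Values of 5 of the 9 tested genes did not overlap between groups, 4 higher (Cacnb1, Cacng1, Ryr1 and Jph2) and 1 lower (Jph1). Among all genes tested, 53.6% did not overlap, 48.7% higher and 4.83% lower. Knockout library 2 held the lowest value of its genotype for 9 of the 10 genes, and knockout library 1 the highest for 8. Mitochondrial transcripts took 45.7% of TPM in knockout library 2 and 39.0% in knockout library 1, the highest and lowest shares of that genotype. The part of this share in the differences between knockout libraries was not tested. Among wild-type libraries, library 3 held the highest value for 5 genes and the lowest for 3, and library 1 the highest for 2 and the lowest for 5. Leaving Ryr3 aside, the coefficient of variation ran from 6.75 to 24.2% in knockout libraries and from 2.37 to 16.1% in wild-type libraries.

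The order of the levels differed between the genotypes. In knockout libraries Stac3, Cacng1, Ryr1 and Cacna1s came first, with means of 183, 157, 156 and 145 TPM and overlapping values between neighbours. Cacnb1 followed at 62.3 TPM, below Cacna1s without overlap, and Jph2, Cacna2d1, Cacng6 and Jph1 came next, each overlapping its neighbour. In wild-type libraries Stac3, Cacna1s and Ryr1 came first, with means of 161, 128 and 126 TPM, and Jph1 followed at 47.4 TPM without overlap. There Cacng1 was 8th of the 10 genes and Cacnb1 9th, at 32.1 and 28.3 TPM, while Cacng1 was 2nd and Cacnb1 5th in knockout libraries.

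A ratio of 2 genes in the same library does not depend on the scale of that library. Per TPM of Cacna1s there were 1.22, 0.998 and 1.01 TPM of Cacng1 in knockout libraries, against 0.253, 0.274 and 0.229 in wild-type libraries. The level of Cacng1 thus matched that of the pore subunit in knockout libraries, and was about 0.252 of it in wild-type libraries. For Cacnb1 the values were 0.510, 0.407 and 0.374 in knockout libraries and 0.271, 0.219 and 0.186 in wild-type libraries, again without overlap. Stac3 was at 1.26 ± 0.198 per TPM of Cacna1s in knockout libraries and 1.26 ± 0.0642 in wild-type libraries (SD, n = 3 each). Cacna2d1 was at 0.328 ± 0.0724 in knockout libraries and 0.326 ± 0.0280 in wild-type libraries, and Cacng6 at 0.306 ± 0.0553 in knockout libraries and 0.278 ± 0.0249 in wild-type libraries. Those 3 ratios overlapped between genotypes.

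Another 4 ratios were tested with exact permutation tests, two-sided, for which 0.1 is the smallest possible p. The ratio of Cacng6 to Cacng1 was 0.303, 0.284 and 0.263 in knockout libraries, against 1.21, 0.945 and 1.17 in wild-type libraries (exact permutation test, p = 0.1, adjusted over the 4 ratios 0.133). The ratio of Jph2 to Jph1 was 1.85, 1.34 and 1.35 in knockout libraries and 0.988, 0.787 and 1.01 in wild-type libraries, with the same p-values and no overlap. For Ryr3 to Ryr1 the ratio was 0.00413 ± 0.00166 in knockout libraries and 0.00148 ± 0.000868 in wild-type libraries (exact permutation test, p = 0.1, n = 3 each). The ratio of Ryr1 to Cacna1s, release channel to voltage sensor, was 1.08 ± 0.0960 in knockout libraries and 1.00 ± 0.182 in wild-type libraries (exact permutation test, p = 0.7, n = 3 each). None could pass 0.05 in a design of this size.

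**Figure D3:**
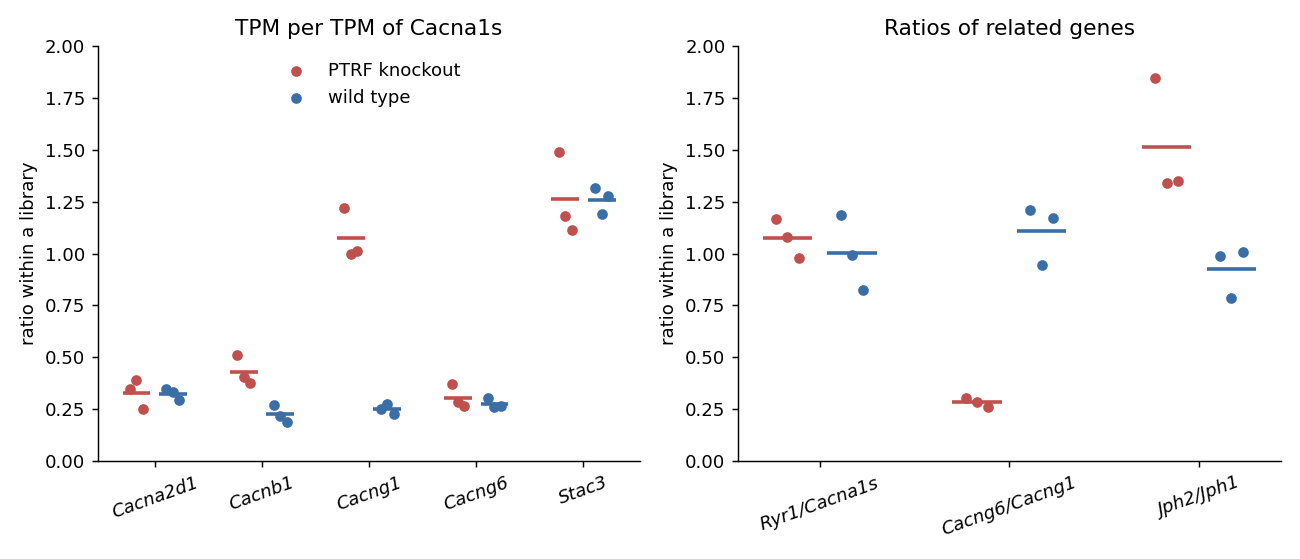
Ratios of TPM within a library, per TPM of Cacna1s (left) and between related genes (right), with knockout libraries left of wild-type libraries, points for libraries and bars for means. Cacng1 per Cacna1s lies near 1.08 in knockout libraries and 0.252 in wild-type libraries, and Ryr1/Cacna1s overlaps between the genotypes.

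The 10 genes together summed to 998, 758 and 923 TPM in knockout libraries, against 592, 645 and 692 TPM in wild-type libraries (exact permutation test, two-sided p = 0.1, the smallest possible). As a share of the TPM of nuclear genes, the sum was 0.189, 0.165 and 0.183% in knockout libraries. In wild-type libraries this share was 0.146, 0.156 and 0.143% (exact permutation test, two-sided p = 0.1). Wild-type library 3 had the highest sum of its genotype in TPM and the lowest as this share. Cacng1 is part of these sums, and no sum without it was tested. Cacng1 made up 17.5 ± 0.803% of the summed TPM in knockout libraries and 4.98 ± 0.465% in wild-type libraries (SD, n = 3 each), and Cacnb1 6.96 ± 0.371% in knockout libraries and 4.42 ± 0.453% in wild-type libraries. Jph1 made up 4.41 ± 0.329% in knockout libraries and 7.41 ± 0.939% in wild-type libraries. The shares of Stac3, at 20.4 ± 0.987% in knockout libraries and 25.0 ± 2.03% in wild-type libraries, and of Cacna1s, at 16.4 ± 1.76% in knockout libraries and 19.8 ± 1.68% in wild-type libraries, were also lower without overlap. Shares add to a fixed total, so a greater share of Cacng1 lowers those of the other genes.

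**Figure D4:**
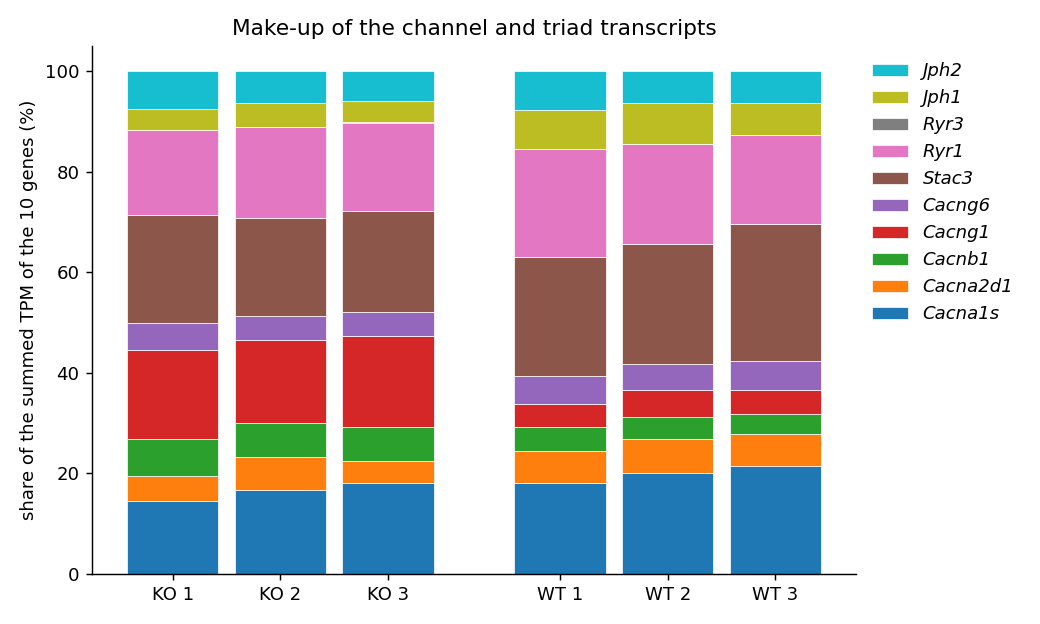
Share of each gene in the summed TPM of the 10 genes, as a percentage, for the 3 knockout libraries (left) and the 3 wild-type libraries (right). The Cacng1 band takes 16.6 to 18.2% in knockout libraries and 4.57 to 5.48% in wild-type libraries.

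Most relatives of these genes were scarce. Of 29 further genes of the same families, 21 were under 1 TPM in every library, and Cacna1f and Cacng3 were listed at 0 throughout. On the deposited scale 36.3% of all genes tested were higher and 2.92% lower. Of the 6 relatives tested, 4 were higher and none lower. They were the inositol trisphosphate receptors Itpr1 (4.93 ± 0.286 TPM in knockout libraries, 2.32 ± 0.270 in wild-type libraries) and Itpr2 (2.45 ± 0.597 in knockout libraries, 1.01 ± 0.109 in wild-type libraries), the beta subunit gene Cacnb3 (1.59 ± 0.485 in knockout libraries, 0.587 ± 0.0575 in wild-type libraries) and the T-type channel Cacna1g (1.34 ± 0.0620 in knockout libraries, 0.599 ± 0.169 in wild-type libraries; SD, n = 3 each). Cacnb3 and Cacna1g reached 1 TPM in knockout libraries alone, so being higher was a condition for testing them. Cacna1a, the pore of the P/Q-type channel of nerve terminals, did not pass, at 6.05 ± 1.19 TPM in knockout libraries and 8.22 ± 2.96 TPM in wild-type libraries. After trimmed-mean rescaling only Itpr1 and Itpr2 passed, both as higher. Cacna1g had a log2 fold change of 0.38 there and did not pass (limma adjusted p = 0.0510), and Cacnb3 fell below the filter and was not tested. On that scale 14.2% of all genes tested were higher and 13.5% lower.

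Of 14 genes for shaping and membrane proteins of the T-tubule, all tested, 3 were higher and 1 lower, with a median log2 fold change of 0.22. Over all genes tested, 36.3% were higher and 2.92% lower, with a median of 0.33. Cav3, the muscle caveolin, rose to 76.9 ± 13.3 TPM in knockout libraries, against 32.4 ± 4.07 TPM in wild-type libraries (limma adjusted p = 0.000245). Bin1, the membrane-bending amphiphysin of T-tubules, rose to 328 ± 76.1 TPM in knockout libraries, against 191 ± 10.4 TPM in wild-type libraries. Dnm2, a GTPase of membrane scission, rose to 19.4 ± 3.43 TPM in knockout libraries, against 13.0 ± 0.620 TPM in wild-type libraries. Kcnj2, an inward rectifier potassium channel, fell to 19.1 ± 4.49 TPM in knockout libraries, against 31.5 ± 3.07 TPM in wild-type libraries. After trimmed-mean rescaling 1 gene was higher, Cav3, and 3 were lower, Kcnj2, Ank1 and Speg. Their log2 fold changes there were 0.83, -1.09, -0.42 and -0.43. On that scale 14.2% of all genes tested were higher and 13.5% lower.

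In the list of calcium store, pump and junctional reticulum genes 3 of 14 were higher and none lower (median 0.18). The shares over all genes tested were 36.3% higher and 2.92% lower (median 0.33). Sln, encoding sarcolipin, a small inhibitor of the calcium pump, was at 344, 181 and 471 TPM in knockout libraries, against 58.1, 47.2 and 83.4 TPM in wild-type libraries (log2 fold change 2.31, limma adjusted p = 0.000189). Asph, whose locus also encodes the triad protein junctin, had a log2 fold change of 0.45, and Jsrp1, a junctional reticulum protein that binds the channel, 0.52. Casq1, a calcium buffer of the reticulum, stood at 312 ± 66.0 TPM in knockout libraries and 341 ± 13.2 TPM in wild-type libraries. Trdn, which links Casq1 to Ryr1, was at 219 ± 20.3 TPM in knockout libraries and 179.5 ± 11.4 TPM in wild-type libraries. Neither passed. After trimmed-mean rescaling Sln alone was higher, and Hrc and Tmem38a were lower. On that scale 14.2% of all genes tested were higher and 13.5% lower.

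Of 13 genes whose products bind or modify ryanodine receptors 12 were tested, and 7 were higher and none lower (median 0.40). Over all genes tested, 36.3% were higher and 2.92% lower (median 0.33). Camk2a, Camk2g and Camk2d, isoforms of the calcium- and calmodulin-dependent kinase, had log2 fold changes of 1.03, 0.83 and 0.85. Fkbp1a, the immunophilin bound to Ryr1, rose to 90.8 ± 5.52 TPM in knockout libraries, against 58.3 ± 4.20 TPM in wild-type libraries. After trimmed-mean rescaling the 3 kinase genes stayed higher and S100a1 and Homer1 were lower. On that scale 14.2% of all genes tested were higher and 13.5% lower. In the store-operated entry list 1 of 6 tested genes was higher, the calcium sensor Stim2 (6.73 ± 0.533 TPM in knockout libraries, 3.75 ± 0.893 TPM in wild-type libraries; log2 fold change 0.72), and none was lower (median 0.19). After trimmed-mean rescaling none of this list passed.

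**Figure D5:**
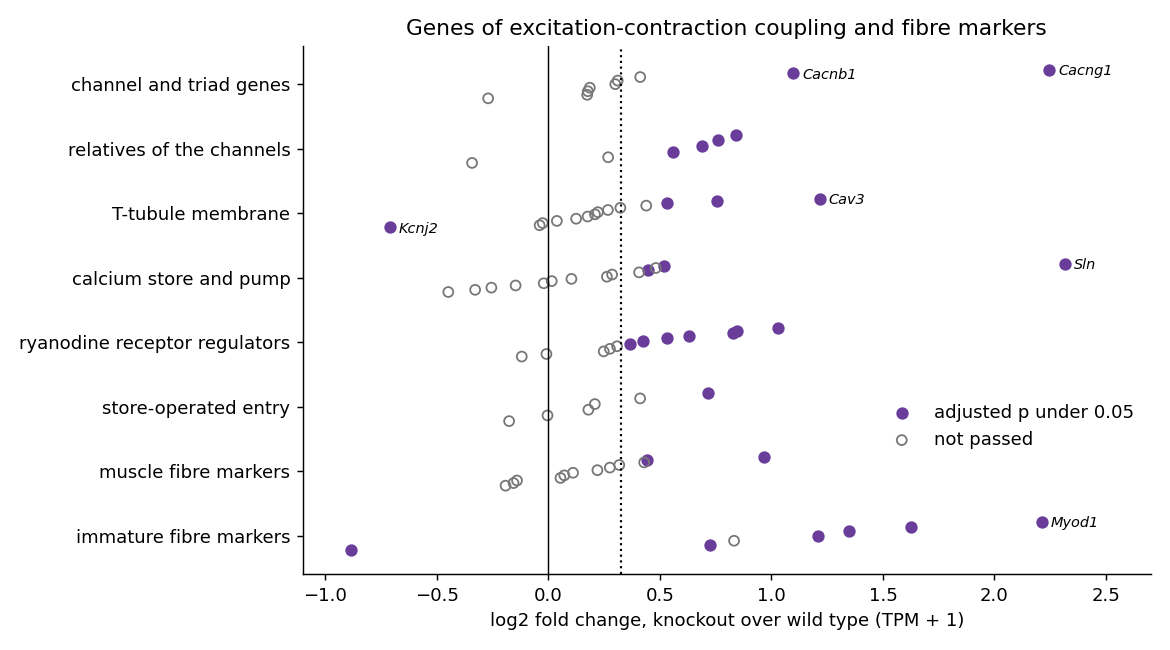
Log2 fold change of knockout over wild type (TPM + 1, deposited scale) for each tested gene of the channel and triad set, 5 related lists and 2 lists of fibre markers, with filled points for an adjusted p under 0.05; the dotted line is the median of all genes tested, 0.33. Cacng1 at 2.25 and Sln at 2.31 lie farthest right in their lists.

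On the deposited scale 36.3% of all genes tested were higher and 2.92% lower, and after trimmed-mean rescaling 14.2% were higher and 13.5% lower. Each count of markers below is to be read beside these shares. Markers of muscle fibres were abundant in every library, and all 12 were tested. Their sum ran from 32687 to 38408 TPM in knockout libraries and from 29117 to 33298 TPM in wild-type libraries, with 2 genes higher (Des and Neb) and none lower. Trimmed-mean rescaling left Des higher and put Mb among the lower genes. Slow fibre markers (19826 to 23900 TPM in knockout libraries, 19419 to 27953 TPM in wild-type libraries) and fast fibre markers (25909 to 29477 TPM in knockout libraries, 22997 to 26564 TPM in wild-type libraries) overlapped in sum. Of the fast markers 2 were higher on the deposited scale and none after trimmed-mean rescaling. They were Actn3, at 70.7, 147 and 109 TPM in knockout libraries and 9.67, 104 and 22.8 TPM in wild-type libraries, and Myh4, the fastest myosin, at 238, 580.1 and 346 TPM in knockout libraries and 6.43, 194 and 4.21 TPM in wild-type libraries. Wild-type library 2 stood far above the other wild-type libraries for both. No slow marker passed on the deposited scale, and 3 were lower after trimmed-mean rescaling. Myh7, a slow myosin, stood at 3186, 2196 and 3291 TPM in knockout libraries, against 2175, 1702 and 2703 TPM in wild-type libraries. Its level was above that of Myh4 in every library. The muscle of origin was not tested with these markers. Of 9 markers of immature fibres 7 were tested, and 5 were higher and 1, Actc1, lower, with sums of 62.9 to 89.95 TPM in knockout libraries and 31.0 to 58.6 TPM in wild-type libraries. All 7 fibroblast markers were higher (843 to 875 TPM in knockout libraries, 275 to 303 TPM in wild-type libraries), as were all 7 macrophage markers (145 to 182 TPM in knockout libraries, 30.7 to 36.2 TPM in wild-type libraries). Of the macrophage markers, Adgre1 reached 1 TPM in knockout libraries alone, so being higher was a condition for testing it. Of 5 endothelial markers 4 were higher (summed level of all 5, 143 to 162 TPM in knockout libraries, 71.5 to 79.0 TPM in wild-type libraries), and Kdr, a receptor for vascular endothelial growth factor, was lower, at 4.54 ± 0.981 TPM in knockout libraries and 10.1 ± 1.84 TPM in wild-type libraries (limma adjusted p = 0.00126). Of 7 smooth muscle markers 6 were tested and 1 was higher (193 to 208 TPM in knockout libraries, 166 to 175 TPM in wild-type libraries). Cardiac markers summed to at most 11.2 TPM, with Myl7 listed at 0 in all libraries. The part of these cells in the values of the channel and triad genes was not tested.

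Profiles over the 6 libraries were compared by the root mean square difference of log2(TPM + 1) after each gene was centred at its mean. Nearest to Ryr1 were Atg4b, Fbxo21, Calcoco1, Asb16 and Morc4, at distances of 0.034 to 0.043. The genes nearest to Cacna1s were Cfap74, Krtcap2, Fntb, Eif1 and Hinfp, at 0.028 to 0.056. The median distance of all tested genes was 0.21 from Ryr1 and 0.25 from Cacna1s. Within the channel and triad set Stac3 was nearest to Cacna1s, at 0.13 and rank 482, and Cacng6 was nearest to Ryr1, at 0.13 and rank 1631. Cacng1 lay far from both, at 0.98 from Ryr1 and 1.04 from Cacna1s.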

How the data were processed

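The authors' deposited values were taken as TPM from the values alone, since no label or header names the unit. The submitters' processing notes name STAR 2.5.3a, kallisto 0.43.0, GRCm38 and mm10 but not their roles. RNA was extracted with TRIzol and libraries built with a NEBNext Ultra kit, per the labels' protocols. TPM holds no depth, so no counting interval is given.

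Genes missing from a file were set to 0 over 21936 genes, of which 21817 identifiers were in GENCODE release 21 for mouse. The test covered the 11056 genes that reached 1 TPM in 3 or more libraries. It ran on log2(TPM + 1), which understates changes of low genes, in limma 3.58.1 (R 4.3.3), with a trended prior variance, 4 residual degrees of freedom and Benjamini-Hochberg adjustment at 0.05. The fit was run on simulated data with independent noise and equal numbers of genes raised and lowered. That setting held no shift of scale between genotypes, so error rates under such a shift were not tested. Alternatives were trimmed-mean rescaling (trimming 30% of ratios, 5% of levels), quantile normalization, scales over nuclear or fibre genes, other filters and pseudocounts, no trend, a replicate block, a log2 fold threshold of 1, and libraries left out. The 10 genes, the lists and the tests were chosen with earlier results of these data known. Named genes were all 10, Cavin1, up to 4 passing genes with the smallest adjusted p from each related list, and the 5 nearest profiles of Ryr1 and Cacna1s. Other genes named from those lists or from the marker lists were chosen after their values were seen. A list of markers of another cell type is not reported here. Tables and exact tests were made with pandas 2.3.3 and numpy 2.4.6 in Python 3.11.15, and plots with matplotlib 3.10.9.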

Additional observations from a re-analysis of the deposited data

How the results depend on the processing

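Cacng1 and Cacnb1 were higher and passed under all 17 alternatives fitted. Of the 9 genes tested, 2 or 3 passed in each, the third being Jph1 as lower under the 4 rescalings (log2 fold change -0.55 after quantile normalization, -0.66 after trimmed-mean rescaling, -0.47 on the nuclear-only and on the fibre-gene scale) and Jph2 as higher without knockout library 2. Of the genes that did not pass on the deposited scale, Cacna1s, Cacna2d1 and Stac3 turned sign under the 4 rescalings. Cacng6 and Ryr1 did so after trimmed-mean rescaling alone, and Jph1 and Jph2 kept their sign throughout. After quantile normalization Cacna1s stood at -0.034, Cacna2d1 at -0.11 and Stac3 at -0.026. After trimmed-mean rescaling Cacna1s stood at -0.21, Cacna2d1 at -0.21, Cacng6 at -0.075, Ryr1 at -0.093 and Stac3 at -0.22. On the nuclear-only scale Cacna1s stood at -0.014, Cacna2d1 at -0.023 and Stac3 at -0.023. On the fibre-gene scale Cacna1s stood at -0.013, Cacna2d1 at -0.022 and Stac3 at -0.022. Except for quantile normalization, these rescalings divide a library by a single factor, which moves all of its genes together. The trimmed-mean factors were 1.27, 1.05 and 1.13 for knockout libraries and 0.843, 0.815 and 0.965 for wild-type libraries. Over all genes 4339 passed, against 2823 after quantile normalization, 1839 with a 10 TPM filter (fewer genes tested), 912 with a log2 fold of at least 1, 1886 without wild-type library 2 and knockout library 1, and 2648 to 4458 with single libraries left out (2648 when knockout library 1 was dropped, 2724 for knockout library 3 and 2784 for wild-type library 2). In the 5 related lists 19 genes passed, against 12, 15, 3, 9 and 11 to 20 in the same order; the lowest, 11 genes, came without knockout library 3. The log2 difference of Ryr3/Ryr1, 1.59, was 0.17 from TPM + 1. Same-numbered libraries of the genotypes did not deviate together (correlations across genes 0.03, -0.01 and 0.04), so the numbers were not taken as pairs; with the replicate block 2 of the 9 genes and 4373 of all genes passed, and the ratios gave the same differences (paired exact p = 0.25 at the least). Unknown depth limits Ryr3 and the other genes under 1 TPM.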
